A study of Mus musculus with 17 samples.

Results

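The cells described here are the lung-derived CD44high single cells, called lungH. They are the 221 barcodes of the lungH library that had over 500 genes detected and under 10% of their counts in the 13 genes whose symbols start with mt-. The library held 3623 barcodes, and 804 cells of all 3 single-cell libraries passed the same filter, 235 of them lung-derived CD44low (lungL) and 348 lymph node-derived CD44high (lymphH). The cells came from cultures that were started from the organs of 10- to 12-week-old female FVB/NJ mice carrying MMTV-PyMT, a transgene that drives the polyoma middle T oncogene from a mammary tumor virus promoter and gives mammary tumors that spread to lung and lymph nodes. The cultures were grown and passaged in serum to favour cancer cells, for about a month, and were then sorted as EpCAMhigh with either high (lungH, lymphH) or low (lungL) CD44 on their surface. The methods of the study speak of 2 replicates for each single-cell sample, whereas the labels give 1 library each and the tables are named as merged without a map from cells to isolates, so each library was treated as 1 sample. The differences between them have no replicate check, and culture, library and sort cannot be told apart. The same groups were also measured as bulk RNA in 2 libraries each (lung CD44high, lung CD44low and LN CD44high), whose replicates were clonal isolates of different mice, and this second readout was used to test the contrasts across isolates.

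MMTV-PyMT tumors arise from luminal epithelium, and epithelial cells are held together by cadherins, claudins and keratin filaments. Carcinoma cells that pass through an epithelial-mesenchymal transition (EMT) lose these junctions and make vimentin and matrix proteins instead. CD44 is a receptor for hyaluronan, and EpCAM is an adhesion protein of epithelia.

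The 221 lungH cells held 1653494 counts, 51.8% of the counts of the library. A lungH cell had a median of 7023 counts (961 to 19956) and 2244 genes, against 9698 counts in lungL and 13610 in lymphH. The mitochondrial share had a median of 1.48% in lungH, 0.285% in lungL and 0.696% in lymphH. Levels are counts summed over the cells of a library and given per 10000, with exact Poisson 95% intervals that cover counting error only. Whether the counts are molecules or reads is not given in the sources used here. A gene was tested where the mean of the 2 levels compared was at least 0.5 per 10000, and it was called higher or lower when the levels differed at least 4-fold, with a count of 0 set to 3 counts. A gene near 0 in 1 library could pass this minimum only by being high in the other, so the counts of list members called describe the members that passed and are no support for a direction of the whole list.

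The 5 genes given as markers of these cells were Aldh3a1, an aldehyde dehydrogenase that clears reactive aldehydes; Prl2c3, a proliferin of the prolactin hormone family; Vim, the intermediate filament protein of mesenchymal cells; Htra1, a secreted serine protease; and Gata3, a transcription factor of the mammary luminal lineage. Aldh3a1 (ENSMUSG00000019102.10, chromosome 11, 61207537 to 61218421 on mm10, plus strand) stood at 14.6 per 10000 (14.1 to 15.2) in lungH, 0.316 in lungL and 0.0445 in lymphH. Its level was thus 46.3-fold that of lungL (95% counting interval 36.4 to 59.8) and 329-fold that of lymphH (208 to 556). After each cell was thinned to 1000 counts, 67.7% of lungH cells held an Aldh3a1 count, against 4.29% of lungL and 0.98% of lymphH cells, and before thinning the shares were 88.2%, 12.8% and 3.74%. Both lung CD44high bulk libraries (158 and 229 TPM) lay above both lung CD44low libraries (5.01 and 5.88 TPM), and Aldh3a1 rose by a log2 fold change of 4.90 ± 0.45 (SE, limma adjusted p = 2.3e-05). The LN CD44high bulk libraries, however, held 106 and 69.1 TPM, and the difference from them did not pass the test (1.14 ± 0.45, limma adjusted p = 0.068). The single-cell libraries lymphH and lungH thus lay further apart in Aldh3a1 than the corresponding bulk isolates.

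Htra1 (ENSMUSG00000006205.13, chromosome 7, 130936111 to 130985660, plus strand) was at 8.15 per 10000 in lungH, 0.437 in lungL and 0.737 in lymphH. It was 18.7-fold above lungL (15.1 to 23.2) and 11.1-fold above lymphH (9.76 to 12.6). The bulk libraries gave the same picture, with 2657 and 3170 TPM in lung CD44high, 74.96 and 50.6 in lung CD44low and 119 and 124 in LN CD44high. Htra1 rose in both bulk comparisons, by 5.54 ± 0.42 (limma adjusted p = 5.5e-06) and 4.57 ± 0.42 (limma adjusted p = 3.1e-05). Gata3 (ENSMUSG00000015619.10, chromosome 2, 9857078 to 9890034, minus strand) was at 5.40 per 10000 in lungH, 0.418 in lungL and 0.119 in lymphH. Its bulk values were 187 and 305 TPM in lung CD44high and 2.00 to 2.96 TPM in the other 4 libraries, and it rose by 6.29 ± 0.41 (limma adjusted p = 1.65e-06) and by 6.05 ± 0.41 (limma adjusted p = 4.4e-06). Htra1 and Gata3 were the 2 of these 5 genes called higher in both readouts and in both comparisons.

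Vim (ENSMUSG00000026728.9, chromosome 2, 13573927 to 13582826, plus strand) was at 34.6 per 10000 in lungH, 21.1 in lungL and 6.27 in lymphH, so the 2 lung-derived libraries differed by 1.64-fold and lymphH lay 5.53-fold below lungH. In bulk, Vim stood at 1628 and 2294 TPM in lung CD44high, 1086 and 1215 in lung CD44low and 364 and 384 in LN CD44high. It rose against LN CD44high (2.37 ± 0.37, limma adjusted p = 0.00077), a call that was lost under median-ratio scaling (1.98), and did not pass the test against lung CD44low (0.75 ± 0.37, limma adjusted p = 0.15). Prl2c3 (ENSMUSG00000056457.6, chromosome 13, 12790816 to 12800079, minus strand) did not set lungH apart from lungL. It was at 13.4 per 10000 in lungH, 19.7 in lungL and 0.136 in lymphH. In these bulk groups it was low, at 6.71 and 11.7 TPM in lung CD44high, 0.30 and 0.00 in lung CD44low and 3.22 and 7.62 in LN CD44high. It rose there against lung CD44low (3.12 ± 0.79, limma adjusted p = 0.014), opposite in direction to the single-cell ratio. That call was lost without lung CD44high replicate 2 (2.76), lung CD44low replicate 1 (3.31) or lung CD44low replicate 2 (2.93). Prl2c3 shares 67.0% of its 31-base words with its paralog Prl2c2, so counts of the 2 genes could be split between them and each value is uncertain. Prl2c2 was at 3.66 per 10000 in lungH, 8.05 in lungL and 0.225 in lymphH, which is the same order of libraries.

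**Figure D1:**
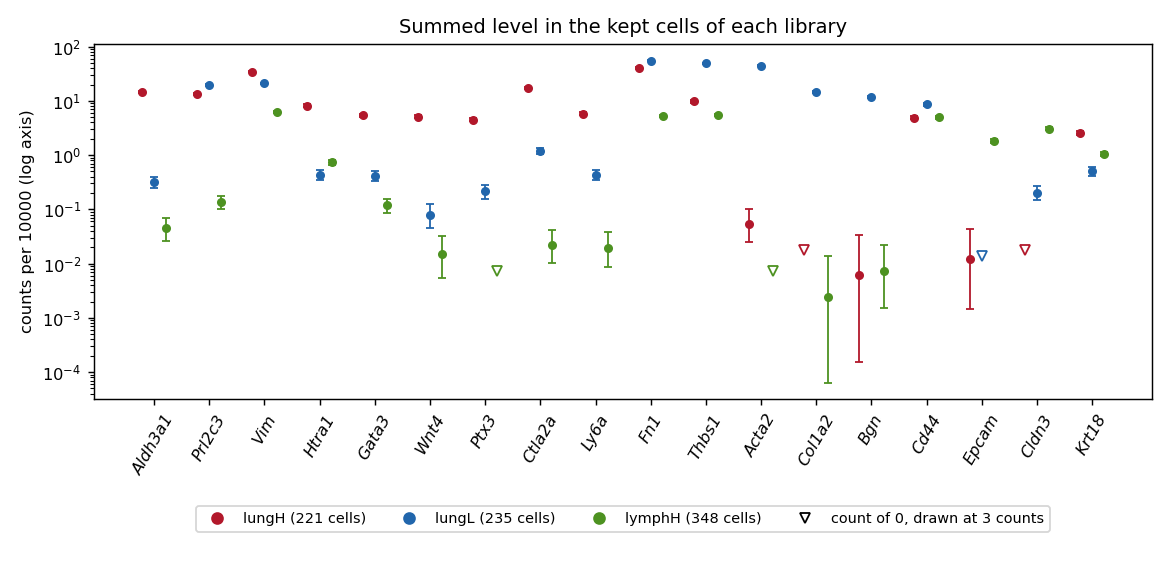
Counts per 10000 (log axis) of 18 genes summed over the kept cells of lungH, lungL and lymphH, with exact Poisson 95% intervals; an open triangle is a count of 0 drawn at 3 counts. Aldh3a1, Htra1 and Gata3 were highest in lungH, Acta2, Col1a2 and Bgn stood above 10 per 10000 in lungL alone, and Epcam and Cldn3 stood above 1 per 10000 in lymphH alone.

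In the lung-derived samples, the transcripts of the sorted proteins did not follow the labels. The study reports that CD44 expression had changed between the first isolates and the cells it profiled. Epcam gave 2 counts in the 221 lungH cells (0.0121 per 10000) and 0 in lungL, but 1.81 per 10000 in lymphH, and the lung CD44high bulk libraries held 0.23 and 0.86 TPM against 941 and 820 in LN CD44high. Cd44 was at 4.91 per 10000 in lungH, 8.57 in lungL and 4.94 in lymphH, so the CD44high lung cells held less Cd44 transcript than the CD44low ones (0.573-fold, 0.527 to 0.622). In bulk the lung CD44high (21.95 and 12.1 TPM) and lung CD44low (12.2 and 21.6 TPM) values of Cd44 overlapped. Cd24a, a surface protein used beside CD44 in sorting mammary cells, was at 6.51 per 10000 in lungH and 4.25 in lungL, while in bulk it rose by 4.86 ± 0.30 (184 and 220 against 4.88 and 7.24 TPM, limma adjusted p = 1.3e-06). Of the 13 sorting and stem cell surface genes, 7 could be tested against lungL, and only Ly6a, which encodes the stem cell antigen Sca-1, was called (5.81 against 0.432 per 10000, 13.4-fold, 10.8 to 16.8). Ly6a passed the minimum only through lungH. Of all genes tested against lungL, 2.03% were called higher and 3.88% lower. Ly6a was also 294-fold above lymphH (149 to 683). In bulk, however, Ly6a was lower in lung CD44high (19.3 and 22.7 TPM) than in lung CD44low (47.9 and 59.99 TPM), and did not pass the fold threshold.

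Markers of other cell types were at or near 0 in lungH. Of 12 macrophage markers, 8 had no count, Ptprc and Adgre1 among them, and the list summed to 0.550 per 10000 in lungH, 0.298 in lungL and 0.232 in lymphH. Of these 91 macrophage counts, 66 were Cd68, a lysosomal protein. The 10 lymphocyte markers gave 5 counts in all, with 9 at 0. The 10 endothelial markers gave 3 counts, with Pecam1 and Cdh5 at 0. The 12 lung epithelium markers gave 3 counts, all of Aqp5, with the surfactant genes at 0. No gene of these 4 lists could be tested against lungL in the single cells. In bulk, 3 lung epithelium, 2 macrophage, 2 lymphocyte and 1 endothelial gene were tested. Aqp5 was called higher than in lung CD44low (1.64 and 5.17 against 0.00 and 0.00 TPM), a call lost without lung CD44high replicate 2 (1.401) or either lung CD44low library (2.01), with only those groups in the fit (2.01) and under median-ratio scaling (1.92), and lower than in LN CD44high (539 and 403 TPM). Lyz2, the lysozyme of macrophages, was called higher than in LN CD44high (6.15 and 18.5 against 1.19 and 0.97 TPM), a call lost without lung CD44high replicate 2 (1.78) or when only those groups entered the fit (2.51), and stood at 35.2 and 34.8 TPM in lung CD44low.

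Against lungL, 3948 genes were tested, of which 80 were called higher in lungH (2.03% of genes tested) and 153 lower (3.88%). By the size of the ratio, the 12 leading genes higher in lungH were Ntrk3, Wnt4, Aldh3a1, Sfrp1, Ptx3, Foxq1, Htra1, Acot1, Cst6, Phactr1, Ctla2a and Ly6a. They include a neurotrophin receptor (Ntrk3), a Wnt ligand (Wnt4) and a secreted Wnt antagonist (Sfrp1), and an acute-phase pentraxin (Ptx3). Ntrk3 was at 1.16 per 10000 in lungH against 2 counts in lungL, and its bulk values were 43.2 and 23.3 TPM against 0.58 and 0.98 (log2 fold change 4.21 ± 0.26, limma adjusted p = 1.3e-06). Ptx3 was at 4.49 against 0.214 per 10000 (21.01-fold, 15.6 to 28.9), and at 17.5 and 33.6 against 0.69 and 0.39 TPM in bulk (4.04 ± 0.32, limma adjusted p = 7.0e-06). Wnt4 was at 5.12 per 10000 in lungH and 0.0791 in lungL (64.7-fold, 40.2 to 112), and 77.8% of lungH cells had a count. Yet Wnt4 was at 0.09 to 0.31 TPM in the lung bulk libraries and could not be tested there.

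By size, the 12 leading genes lower in lungH than in lungL were Bgn, Myl9, Tagln, Acta2, Col1a2, Cck, Nrn1, Fstl1, Serpinf1, Mmp2, Col6a3 and Col5a2. Acta2, smooth muscle actin, had 9 counts in lungH (0.0544 per 10000) and 44.7 per 10000 in lungL, a level 822-fold higher there (433 to 1798). Bulk Acta2 was at 1.36 and 0.56 TPM in lung CD44high and 657 and 711 TPM in lung CD44low, and fell by 8.48 on the log2 scale (limma adjusted p = 3.2e-08). Bgn, the matrix proteoglycan biglycan, had 1 count in lungH, and lungL was 1946-fold higher with an interval of 349 to 76890. Its bulk values were 1.71 and 0.65 against 7905 and 9601 TPM. Col1a2, a chain of type I collagen, had no count in lungH and was at least 811-fold higher in lungL, with 0.00 TPM in both lung CD44high bulk libraries against 47.8 and 77.8. Fstl1, a secreted follistatin-like protein, also had no count in lungH and was at least 517-fold higher in lungL. Cck, the precursor of the peptide cholecystokinin, went from no count in lungH to 11.8 per 10000 in lungL, but its bulk values were 0.00 to 0.32 TPM in the lung libraries.

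Of the 12 contractile genes, 10 could be tested, 7 of them only through their level in lungL, and 8 were called lower in lungH, where 3.88% of all genes tested were. Of the 3 that reached the minimum in both libraries, 1 was lower. The list summed to 12.02 per 10000 in lungH and 119.8 in lungL. In bulk, 7 of 11 contractile genes fell, where 8.8% of all 15348 genes tested fell and 2.49% rose. Of 21 tested matrix and matricellular genes, 12 were lower in lungH, 8 lay within 4-fold and Htra1 was the 1 called higher, and of the 14 at the minimum in both libraries 6 were lower. Bulk gave 18 lower and 1 higher of 24. Thbs1, the matrix protein thrombospondin, was at 9.77 per 10000 in lungH and 49.5 in lungL, and at 473 and 373 against 3398 and 5389 TPM. Mgp, matrix Gla protein, was at 1.97 against 25.4 per 10000, and at 63.8 and 15.1 against 8436 and 8004 TPM. Fn1, fibronectin, was plentiful in both lung-derived libraries, with 40.4 per 10000 in lungH and 55.3 in lungL. In the fibroblast list, Col1a2, Col1a1 and Pdgfrb were called lower, all 3 tested only through lungL, and the other 3 tested genes lay within 4-fold. In bulk, 10 of 14 fell and none rose. In the basal and myoepithelial list the 2 tested genes, Cnn1 and Acta2, passed the minimum only through lungL and were lower in lungH, and the list held 0.895 per 10000 in lungH against 47.2 in lungL.

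Most epithelial genes were at or near 0 in lungH. Of 20 epithelial identity genes, 12 had no count, and Krt8 and Krt18, the keratins of simple epithelia, were the 2 that could be tested against lungL. Both were called higher, Krt8 at 1.72 against 0.130 per 10000 (13.2-fold, 8.96 to 20.3) and Krt18 at 2.55 against 0.511 (4.98-fold, 4.03 to 6.20). Krt8 passed the minimum only through lungH, and 2.03% of all genes tested were called higher. In bulk Krt8 was at 5.26 and 27.8 TPM in lung CD44high and 0.00 in both lung CD44low libraries, whereas LN CD44high held 1624 and 1505 TPM. The bulk calls of Krt8 and Krt18 against lung CD44low were lost when only those groups entered the fit, at folds of 3.75 and 3.23 on the log2 scale as before. Spint2, a protease inhibitor of epithelia, also rose in bulk against lung CD44low (186 and 154 against 7.52 and 6.57 TPM, 4.41 ± 0.24, limma adjusted p = 5.6e-07). Among 16 mammary luminal genes, Gata3 was the 1 that could be tested, and in bulk Esr1 and Pgr, the estrogen and progesterone receptors, rose beside it. Esr1 had 34 counts in the lungH cells and stood at 30.04 and 16.1 TPM in lung CD44high, and Pgr had no count and stood at 12.5 and 6.05 TPM. The bulk call of Esr1 against lung CD44low was lost without lung CD44high replicate 1 (1.68) or lung CD44low replicate 1 (1.94). Of 20 mesenchymal and EMT genes, all had counts in lungH, and the list summed to 145 per 10000 in lungH, 154 in lungL and 38.9 in lymphH. Ncam1, a neural adhesion molecule that also marks EMT, was called higher than lungL (1.90 against 0.163, 11.7-fold, 8.21 to 17.1), and Prrx1, a mesenchymal transcription factor, lower (0.496 against 3.99).

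Against lymphH, 3844 genes were tested, with 113 called higher in lungH (2.94%) and 110 lower (2.86%). The 12 leading higher genes were Col12a1, Tsix, Ctla2a, Tceal8, Rnase4, Ptx3, Smoc2, Adamtsl3, Cxcl12, Ppic, Fbln2 and Colec12. Cxcl12, the ligand of CXCR4, was at 3.15 per 10000 in lungH and 4.70 in lungL and had no count in lymphH, a level at least 425-fold higher in lungH. Bulk Cxcl12 was at 30.04 and 36.2 TPM in lung CD44high, 1687 and 2522 in lung CD44low and 0.00 in both LN CD44high libraries. Fbln2, a matrix fibulin, had no count in lymphH and was at least 362-fold higher in lungH, and its bulk fold change was 7.87 ± 0.53 (limma adjusted p = 4.5e-06). Ctla2a, a cysteine protease inhibitor, was at 17.5 per 10000 in lungH, 1.21 in lungL and 0.0223 in lymphH. Its bulk values were 507 and 444 TPM in lung CD44high and 2.45 and 1.67 in LN CD44high, but 1497 and 1599 in lung CD44low, so the 2 readouts ordered the lung samples differently. Tsix is the antisense partner of Xist, and counts of the 2 could not be told apart without strand. Tsix had 456 counts in lungH and 1 in lymphH.

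The 12 leading genes lower in lungH than in lymphH were Col11a1, Trpv4, Aqp5, Fundc2, Trpc6, Hspb8, Chchd10, Unc13d, Cldn3, Epcam, Lad1 and Rhox5. Cldn3, a tight junction claudin, had no count in lungH and was at least 169-fold higher in lymphH, with 0.00 TPM in both lung CD44high bulk libraries against 809 and 806. Unc13d, a protein of granule release, and Rhox5, a homeobox gene, also had no count in lungH, and were at least 173-fold and at least 140-fold higher in lymphH. Epcam was 150-fold higher in lymphH, with a wide interval (41.3 to 1239) that rests on the 2 lungH counts. Of the epithelial identity list, 4 of the 6 genes tested were lower in lungH (Cldn3, Spint2, Krt7 and Epcam), and these 4 passed the minimum only through lymphH. The other 2, Krt8 and Krt18, lay within 4-fold. In bulk 16 of 19 fell and none rose, where 6.63% of all genes fell and 7.71% rose. Krt18 was not below lymphH in the single cells (2.55 against 1.05 per 10000) but fell in bulk (10.1 and 58.9 against 853 and 743 TPM). Of 12 tested mesenchymal and EMT genes, Fn1, Vim, Ncam1 and Aebp1 were called higher and none lower, and bulk gave 9 higher and 1 lower of 20. The 9 were 7 to 9 over the alternatives, and the 1 lower, S100a4, was lost without lung CD44high replicate 1 (-1.71), LN CD44high replicate 1 (-2.56) or LN CD44high replicate 2 (-2.57), without the filter on low TPM (-2.57) and with only those groups in the fit (-2.57). Aebp1, a secreted collagen-binding protein, was at 7.21 against 0.193 per 10000 (37.4-fold, 29.7 to 47.6). Fn1 was 7.63-fold above lymphH (7.27 to 8.02), and its rise in bulk (3.20 ± 0.86, limma adjusted p = 0.014) was lost without lung CD44high replicate 1 (2.23), LN CD44high replicate 1 (3.12) or LN CD44high replicate 2 (3.28), and when only those groups entered the fit (3.20).

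Among 14 matrix genes tested, 6 were higher in lungH (Fn1, Ccn5, Ecm1, Mgp, Htra1 and Igfbp4) and none lower, where 2.94% and 2.86% of all genes tested were, and 5 of the 14 passed only through lungH. In the fibroblast list Col5a1 and Fbln2 were higher among 3 tested, and both passed the minimum only through lungH. None of 3 contractile genes was called, no basal gene could be tested, and Aqp5 of the lung epithelium list was lower (0.0181 against 4.21 per 10000). Aqp5 passed the minimum only through lymphH. Gata3 was higher and Areg, an EGF-family ligand, lower among the 2 mammary luminal genes tested. Gata3 passed the minimum only through lungH and Areg only through lymphH. In bulk, 3 of 11 luminal genes rose against LN CD44high (Gata3, Pgr and Esr1) and 4 fell (Kit, Areg, Ltf and Wfdc18). Of all genes, 7.71% rose and 6.63% fell there. The Ltf call was lost without LN CD44high replicate 1 (-2.05). Ly6a was higher and Epcam lower among 8 sorting and stem cell surface genes, Ly6a passing only through lungH and Epcam only through lymphH. In all, 27 of 3467 genes tested in both comparisons were called higher in lungH than in either of the other libraries, Aldh3a1, Htra1, Gata3, Wnt4, Ptx3, Ctla2a, Ly6a, Ntrk3, Sfrp1, Foxq1, Clu, Ncam1 and Gsta4 among them. Another 12 were lower than in both, including Alcam, Col8a1, Angptl2 and Nrp2. Because lungH stands in both comparisons, these counts are a description.

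**Figure D2:**
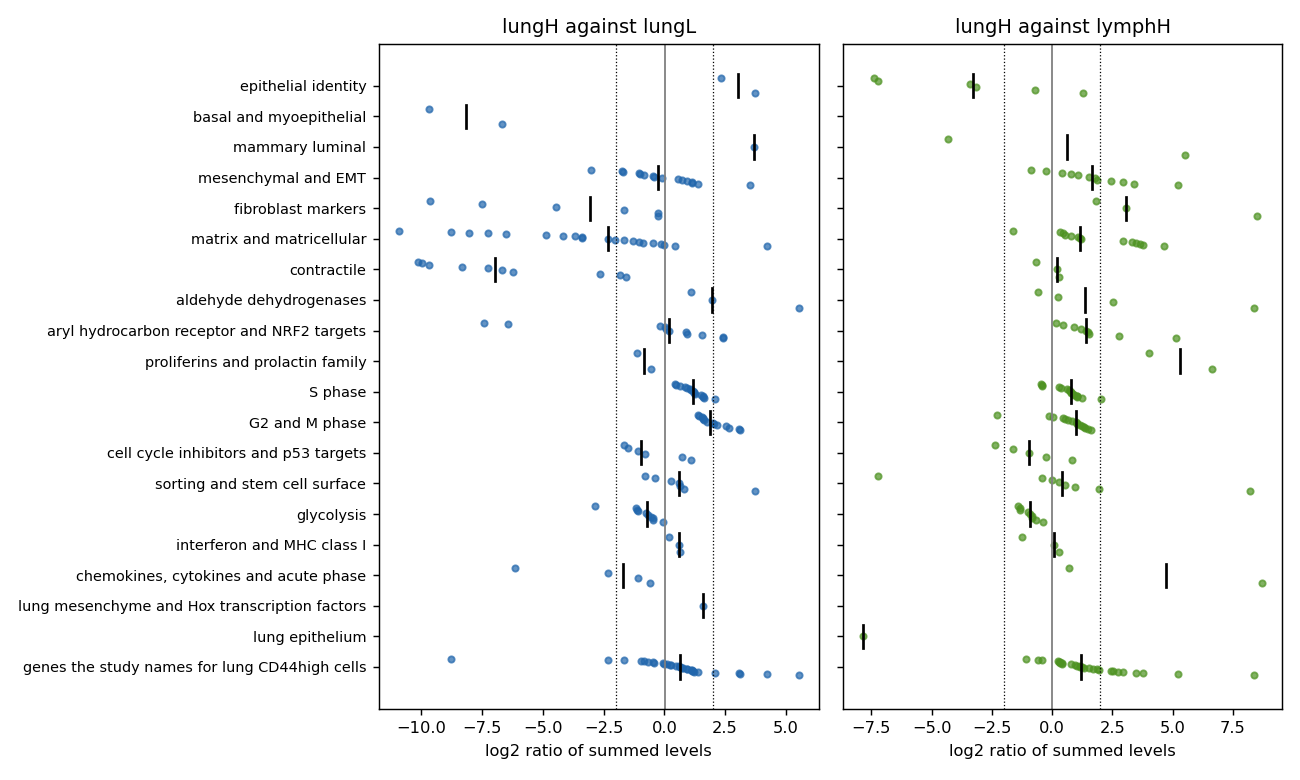
Log2 ratio of the level in lungH to that in lungL (left) and lymphH (right) for each tested member of the gene lists; each point is a gene, the black bar the median of the tested members, the grey line the median of all genes tested, and the dotted lines 4-fold. Against lungL, 8 contractile, 12 matrix and 3 fibroblast genes lie left of the 4-fold line while other members of these lists lie near 0, and 14 of 14 (left) and 14 of 16 (right) tested G2 and M phase genes lie right of 0.

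Of the enzymes that clear aldehydes and xenobiotics, Aldh3a1 had most of the counts of its family in the lungH cells. The 18 aldehyde dehydrogenases summed to 19.1 per 10000 in lungH, 3.44 in lungL and 3.19 in lymphH, and Aldh3a1 made up most of the lungH sum. In bulk the family did not follow this order, with summed levels of 666 and 730.3 TPM in lung CD44high, 1032 and 1098 in lung CD44low and 641 and 563 in LN CD44high, and against lung CD44low Aldh3a1 rose and Aldh1l1, Aldh1a1 and Aldh18a1 fell among 15 tested. The call of Aldh18a1 was lost without lung CD44high replicate 2 (-1.96) or lung CD44low replicate 2 (-1.79), and that of Aldh1l1 without lung CD44low replicate 2 (-1.97). Aldh3a1 was the 1 of 3 tested members called against lungL, and Aldh3a1 and Aldh3a2 were the 2 of 4 called against lymphH. These calls were all higher in lungH, where 2.03% (lungL) and 2.94% (lymphH) of all genes tested were. Each passed the minimum only through lungH. Aldh3a2, the fatty aldehyde dehydrogenase, was at 1.49 per 10000 in lungH, 0.381 in lungL and 0.259 in lymphH. Aldh1a1, the family member most used as a stem cell marker, had 2 counts in lungH, and in bulk fell against lung CD44low (1.99 and 20.9 against 610.2 and 601 TPM). Against LN CD44high, where both libraries were at 0.00 TPM, Aldh1a1 was called higher, a call lost without lung CD44high replicate 2 (1.58) or when only those groups entered the fit (3.02). Aldh3a1 is a known target of the aryl hydrocarbon receptor, and of 11 tested genes of the aryl hydrocarbon receptor and NRF2 list, Gclm and Gsta4 were higher than in lungL and Nqo1 and Cyp1b1 lower. Of all genes tested there, 2.03% were higher and 3.88% lower. Nqo1 and Cyp1b1 passed the minimum only through lungL. Gclm, a subunit of the glutathione-making enzyme, was at 5.86 per 10000 in lungH, 1.10 in lungL and 2.03 in lymphH. Nqo1, a quinone reductase, had 1 count in lungH and was at 1.05 per 10000 in lungL. Cyp1b1, a monooxygenase that the receptor induces, had no count in lungH and was at 1.58 per 10000 in lungL. In bulk none of 16 members rose against lung CD44low, where 2.49% of all genes did, and 7 fell, where 8.8% did, Ahr itself among them (0.25 and 0.25 against 98.9 and 104 TPM). Against lymphH, Gstm1 and Gsta4, both glutathione transferases, were higher in the single cells among 9 tested, where 2.94% of all genes tested were. Both passed the minimum only through lungH.

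Gclm and Prl2c3 are shown by the 250 bases upstream of their RefSeq start (GRCm38.p6), since Gclm was called in opposite directions by the 2 readouts and Prl2c3 varied most among the lungH cells. On both strands, GCGTG (aryl hydrocarbon receptor core), TGANNNNGC (antioxidant response element), TGANTCA (AP-1) and AGATAA (bound by GATA-family factors) were searched, and matches to the first 3 are in capitals. The 4 motifs occur in 28.2%, 35.2%, 6.75% and 9.99% of the 32851 upstream windows of this length. The Gclm window (chr3:122245307-122245556, plus strand) held 3 matches to the first and 1 to the second with no overlap, and the Prl2c3 window (chr13:12800080-12800329, minus strand) held 1 match to the third and 1 to the last, which is left in lower case. A match is a description of letters and not of binding.
Gclm: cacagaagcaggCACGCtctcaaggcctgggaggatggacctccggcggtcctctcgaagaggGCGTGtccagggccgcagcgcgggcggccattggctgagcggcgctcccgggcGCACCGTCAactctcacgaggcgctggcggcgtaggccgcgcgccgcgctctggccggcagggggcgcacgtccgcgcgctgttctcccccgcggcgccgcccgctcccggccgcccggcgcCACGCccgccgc
Prl2c3: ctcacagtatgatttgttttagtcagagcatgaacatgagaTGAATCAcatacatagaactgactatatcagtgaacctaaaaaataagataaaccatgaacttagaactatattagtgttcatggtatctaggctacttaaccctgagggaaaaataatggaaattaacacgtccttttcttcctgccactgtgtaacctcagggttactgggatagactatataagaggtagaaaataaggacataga

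The summed cell cycle lists were higher in the lungH cells than in lungL. The 22 G2 and M phase genes, which serve the spindle and mitotic entry, summed to 37.1 per 10000 in lungH (36.2 to 38.04), 10.6 in lungL (10.1 to 11.02) and 27.4 in lymphH (26.9 to 27.96). The 20 S phase genes summed to 44.4, 19.0 and 28.7. Of 14 tested G2 and M phase genes, 7 were higher than in lungL (Cenpf, Nusap1, Ube2c, Cenpa, Mki67, Aurkb and Ccnb1), where 2.03% of all genes tested were, and all 14 ratios were above 1. Of the 14, 9 passed the minimum only through lungH, and none of the other 5 was called. Of 16 tested S phase genes, all 16 ratios were above 1 and Tyms, thymidylate synthase, was called. After thinning to 1000 counts, 108 of 220 lungH cells (49.1%, exact 95% interval 42.3 to 55.9) held at least 2 counts of the G2 and M phase list, against 47 of 233 lungL cells (20.2%, 15.2 to 25.9) and 146 of 306 lymphH cells (47.7%, 42.0 to 53.5). Without thinning, the shares were 83.3%, 63.8% and 84.2%. These intervals cover the counting of cells within 1 library and do not compare the groups.

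The bulk libraries ordered these samples otherwise. The G2 and M phase list summed to 641 and 864 TPM in lung CD44high, 374 and 382 TPM in lung CD44low and 6535 and 6743 TPM in LN CD44high. Against lung CD44low, 0 of the 22 G2 and M phase and 0 of the 20 S phase genes rose or fell by limma. At an unadjusted p under 0.05, 1 G2 and M phase gene was higher and none lower, and 1 S phase gene was higher and 2 lower. Without lung CD44high replicate 2, 1 G2 and M phase gene was called lower. Against LN CD44high, 21 of the 22 genes fell (19 to 21 over the alternatives), 18 of the 20 S phase genes fell, and none rose, where 6.63% of all genes fell and 7.71% rose. Mki67, the usual proliferation antigen, was at 2.06 per 10000 in lungH and 1.01 in lymphH, whereas the bulk values were 0.05 and 1.24 TPM in lung CD44high and 7.89 and 7.17 TPM in LN CD44high. That bulk call was lost without any 1 of the 4 libraries (-3.02 to -1.93) and without the filter on low TPM (-2.47). Top2a, a topoisomerase of dividing cells, was at 3.65 against 1.63 per 10000 in the single cells and at 0.68 and 8.37 against 99.2 and 99.0 TPM in bulk. Birc5, survivin, was the 1 member called lower in the lungH cells than in lymphH (1.87 against 9.09 per 10000), and it was also the one with the largest bulk difference (0.45 and 8.88 against 3601 and 3645 TPM). The 2 lung CD44high isolates also differed from each other, with Top2a, Ccnb1 and Cdk1 each higher in replicate 2 (8.37, 7.97 and 25.3 TPM) than in replicate 1 (0.68, 0.53 and 1.64 TPM). The lungH cells are labelled replicate 1, and whether that number is the isolate of bulk replicate 1 is not given. In bulk, fewer dividing cells and less of these transcripts per cell cannot be told apart.

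**Figure D3:**
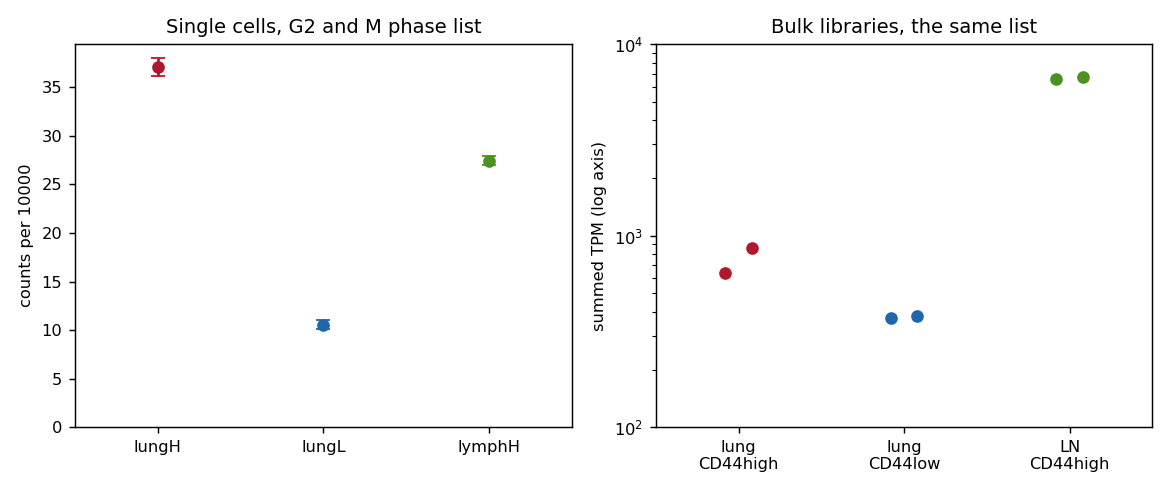
Sum of the 22 G2 and M phase genes in the single-cell libraries (left, counts per 10000 with exact Poisson 95% intervals, linear axis from 0) and in the 2 bulk libraries of each matching group (right, summed TPM, log axis). The lungH cells stood at 37.1 per 10000, above lymphH at 27.4, whereas the bulk lung CD44high libraries at 641 and 864 TPM lay far below LN CD44high at 6535 and 6743.

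None of 6 tested cell cycle inhibitors and p53 targets was called against lungL, and Ccng1, a p53 target, was the 1 of 5 lower than lymphH (0.901 against 4.58 per 10000). Cdkn1a, the p21 inhibitor, was at 0.417 per 10000 in lungH, 1.31 in lungL and 1.27 in lymphH, and fell in both bulk comparisons (14.1 and 24.9 TPM against 345 and 351 and against 228 and 143). Of 17 glycolysis genes, 16 were matched and summed to 62.1 per 10000 in lungH, 111 in lungL and 126 in lymphH. No tested glycolysis gene had a ratio above 1 in either comparison, and Slc2a1, the glucose transporter, was the 1 called (0.405 against 2.93 in lungL). Ldha, lactate dehydrogenase, was at 7.20, 16.3 and 18.2 per 10000. None of 3 tested interferon and MHC class I genes was called in either comparison. In bulk, Psmb9 and Tap2 rose and Bst2 and Ifit3 fell against lung CD44low, and Tap2 rose and H2-K1 fell against LN CD44high. The Bst2 call was lost without lung CD44high replicate 1 (-1.58), lung CD44low replicate 1 (-1.98) or lung CD44low replicate 2 (-2.08), and under median-ratio scaling (-1.995). Of the chemokine, cytokine and acute-phase list, Csf1 and Ccl2 were lower than in lungL among 4 tested and Cxcl12 was higher than in lymphH among 2 tested. In bulk, 9 of 15 fell and none rose against lung CD44low (8.8% and 2.49% of all genes), and 9 fell and 2, Cxcl12 and Il6, rose against LN CD44high (6.63% and 7.71%). The fall against lung CD44low was called for as few as 6 genes without lung CD44low replicate 2, and the rise of Il6 was lost without lung CD44high replicate 2 (1.05) or either LN CD44high library (2.10) and with only those groups in the fit. The 18 lung mesenchyme and Hox transcription factors summed to 0.865 per 10000 in lungH and 3.14 in lungL, with 13 at 0 in lungH, and 12 of 16 fell in bulk against lung CD44low. The proliferin and prolactin list rested on Prl2c3 and Prl2c2, which were both higher than in lymphH and not called against lungL. Of 36 genes that the study names for lung CD44high cells, 5 were higher and 2 lower than in lungL among 32 tested, and 8 were higher and none lower than in lymphH among 28, where 2.03% and 3.88% of all genes were higher and lower than in lungL and 2.94% and 2.86% than in lymphH. In bulk, 3 of the 36 rose and 5 fell against lung CD44low, and 15 rose and 5 fell against LN CD44high, the 5 being Cenpf, Aurka, Stmn1, Mki67 and Top2a. These genes were chosen by the study on these samples, so their direction is not independent evidence.

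Across genes, the single-cell and bulk readouts shared part of their calls. Against lungL, 3865 genes could be tested in both, 223 were called in the single cells and 459 in bulk, and 125 were called the same way, 56.0% of the single-cell calls and 27.2% of the bulk calls. By direction, 24 of 76 genes higher in the lungH cells rose in bulk (31.6%), where 2.02% of the 3865 genes rose, and 101 of 147 lower genes fell (68.7%), where 9.86% fell. Against lymphH, 105 of 200 single-cell calls (52.5%) and 19.4% of 541 bulk calls were shared, with 62 of 110 higher genes and 43 of 90 lower genes. Both comparisons use the same lungH cells and lung CD44high libraries. The 2.02% and 9.86% are the shares of all genes tested in both; against lymphH they were 7.46% higher and 6.91% lower.

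A few genes were called in opposite directions. Against lungL these were Gclm and Sfrp1, and against lymphH Ptgs1, Tyms, Mgp and Gsta4. Sfrp1 was at 2.33 per 10000 in lungH against 0.0511 in lungL, but at 4.29 and 9.59 TPM in lung CD44high against 65.4 and 61.9 in lung CD44low (-3.11 ± 0.50, limma adjusted p = 0.0012). Gclm stood at 15.6 and 17.6 TPM against 194 and 208 (-3.52 ± 0.91, limma adjusted p = 0.016), a bulk call lost without any 1 of the 4 libraries (-3.61 to -3.44). Gsta4 was 6.87-fold above lymphH (5.78 to 8.18) and at 18.0 and 22.7 TPM against 145 and 130 in bulk (-2.70 ± 0.43, limma adjusted p = 0.00091). The bulk calls of Mgp and Tyms against LN CD44high were lost without 1 library, Mgp without lung CD44high replicate 2 (-2.53) or LN CD44high replicate 1 (-2.79), and also with only those groups in the fit (-3.53), and Tyms without lung CD44high replicate 1 (-1.69) or LN CD44high replicate 2 (-2.02).

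**Figure D4:**
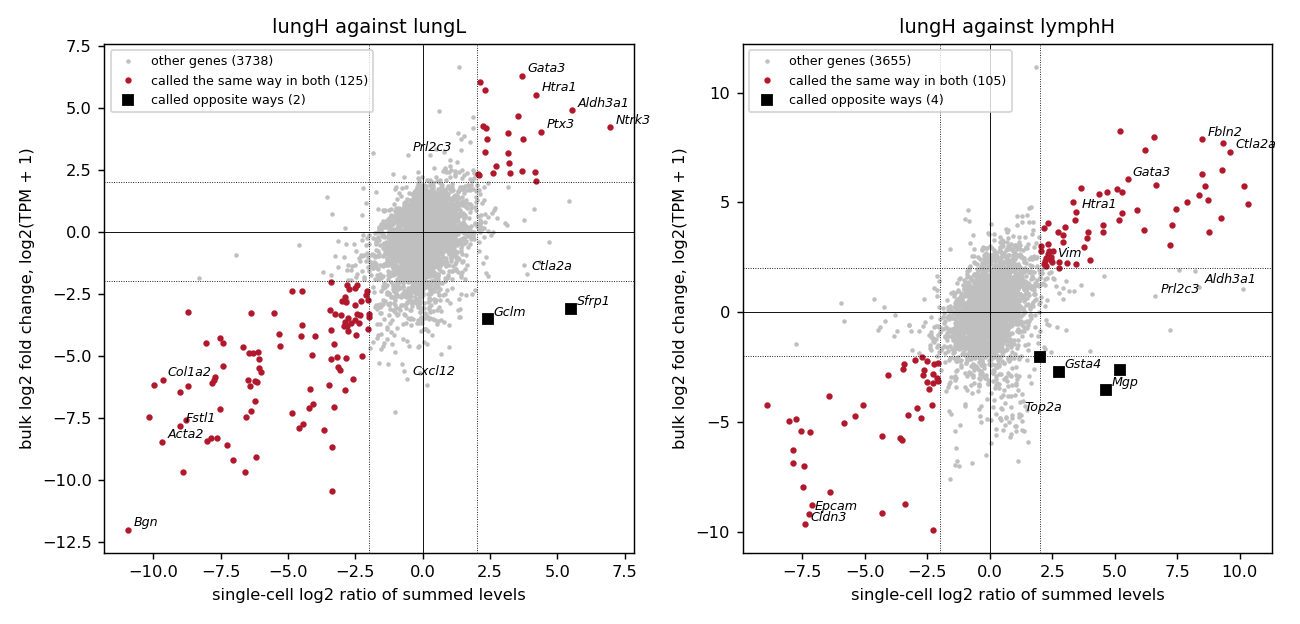
Single-cell log2 ratio of summed levels (x) against the bulk log2 fold change on the log2(TPM + 1) scale (y) for genes tested in both readouts, for lungH against lungL (left, 3865 genes) and lymphH (right, 3764 genes); dotted lines mark 4-fold. Genes called the same way (125 and 105) lie in the lower left and upper right corners, and the 2 and 4 genes called opposite ways in the lower right.

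The most abundant transcripts of lungH outside the ribosomal and mitochondrial genes were Fth1, Eef1a1, H3f3b, Tpt1, Actg1, Gm42418, Actb, Ftl1, Gm37144 and Olfr907, by counts that are not divided by length. The ferritin heavy chain Fth1 led at 118 per 10000, and H3f3b, histone H3.3, was at 85.0 in lungH against 25.5 in lungL and 17.9 in lymphH. Gm42418, Gm37144 and Olfr907 had 42.7 to 65.9 per 10000 and a count in 99.5% of cells. Olfr907, an olfactory receptor, and Gm37144 were both at 0.00 TPM in all 6 bulk libraries compared, and Gm42418 was at 332 per 10000 in the lungH barcodes with at most 250 genes.

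Within lungH, Prl2c3 varied most from cell to cell. For each gene, squared deviations of counts from the mean scaled to each cell's depth were summed and divided by the summed counts. The summed counts are the variance that Poisson sampling would give. This ratio was not adjusted for the level of a gene, and over 3873 genes it had a median of 2.27. The 10 most variable genes were Prl2c3 (56.3), Fth1 (31.6), Prl2c2 (26.4), H3f3b, Actg1, Gm42418, Tuba1b, Spp1, Lce1g and AA465934. In the 148 cells with at least 5000 counts, 77 had no Prl2c3 count, the upper quartile was 14.7 per 10000 and the highest cell 230.0. Among all 221 cells, the 22 with the highest Prl2c3 level held 65.9% of its counts and 10.3% of all counts. The 22 cells highest in Aldh3a1 held 25.1% of its counts, and in the 148 deeper cells its median was 10.9 per 10000, with 6 cells at 0. Vim was found in every one of these 148 cells (median 31.1, highest 104), Htra1 was at 0 in 3 (median 6.66) and Gata3 at 0 in 12 (median 4.42). Across the 148 cells the rank correlation of Aldh3a1 with Prl2c3 was 0.31, and those among Htra1, Gata3 and Vim lay between -0.14 and 0.05, in cells that share 1 library and differ in depth. Most of these cells thus held a count of Htra1, Gata3 and Aldh3a1, and 77 of the 148 held none of Prl2c3. Barcodes of the lungH library with at most 250 genes carried Aldh3a1 at 13.7 and Gata3 at 8.39 per 10000, so a count in a cell does not by itself show that the cell made the transcript, and the part of free RNA was not tested.

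The lungH cells fell into 5 clusters, which were found from the same genes that describe them and carry no test. Cluster 1 (72 cells, 32.6%) was led by Ube2c, Nusap1, Top2a, Pclaf and Anln, with the G2 and M phase list at 70.4 per 10000 against 5.80 to 17.2 in the other clusters. Its cells had a median of 10180 counts and held Aldh3a1 (12.2), Htra1 (7.41) and Gata3 (5.37) at levels near those of the whole. Cluster 2 (36 cells, 16.3%) was led by Prl2c3, Prl2c2, Orm1, Gsta4 and Lce1g. Prl2c3 stood at 53.3 per 10000 in it against 6.13 in the other lungH cells, Gsta4 at 8.28 against 2.13, and the acute-phase gene Orm1 at 1.30 against 0.00714. Cd68 of the macrophage list was also higher there (1.34 against 0.229 per 10000). Cluster 2 also had the highest Aldh3a1 level (22.5), low S phase (11.2) and G2 and M phase (10.9) sums, and 17 of the 22 cells highest in Prl2c3. Cluster 3 (34 cells) was led by Msrb3, Acsl4, Pls3, Epha4 and Gm26735, and Epha4 is an ephrin receptor. Cluster 4 (50 cells) was led by Malat1, Rps18, Loxl3, Celsr1 and Tsix, had a median of 2784 counts and 4.32% mitochondrial counts, and held the highest Fn1 (90.5) and Htra1 (13.2) levels. Cluster 5 (29 cells) was led by Gprc5b, Phykpl, Fbxl12, Mcm7 and Rpl24, with Ctla2a at 37.9 and the S phase list at 69.7 per 10000. Cluster 1 held the S phase list at a similar 64.5 per 10000. Median depth ranged from 2784 counts in cluster 4 to 10540 in cluster 3, the mitochondrial share was highest in cluster 4, and the part of either in the clusters was not tested.

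**Figure D5:**
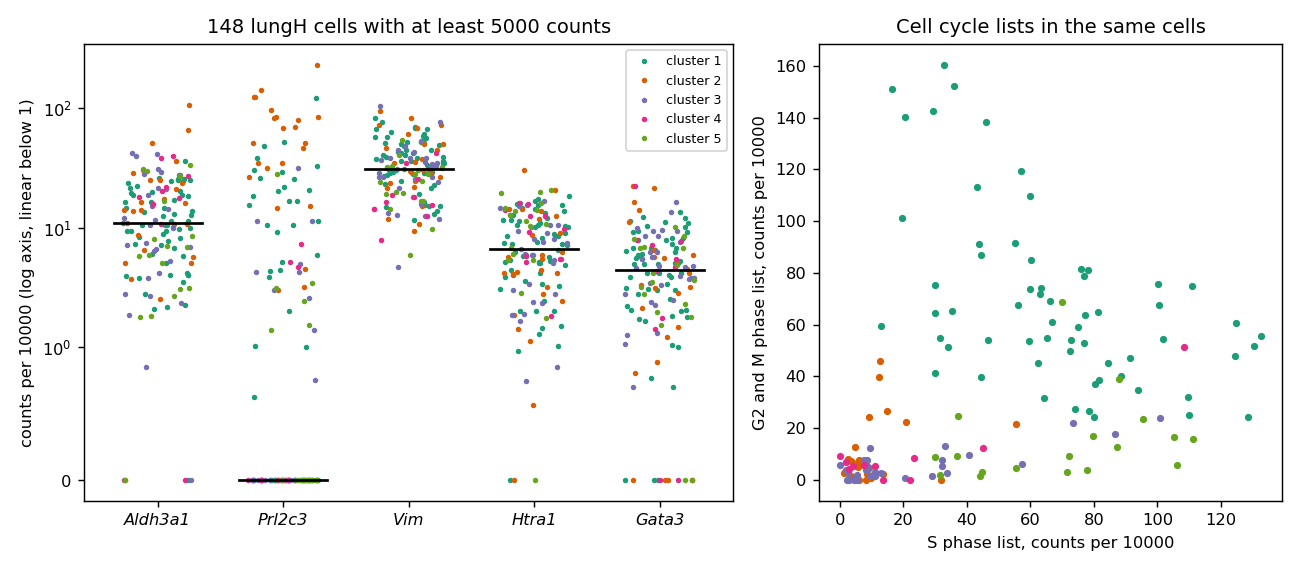
Left, level of the 5 marker genes in each of the 148 lungH cells with at least 5000 counts (log axis, linear below 1; black bars are medians, colors the 5 clusters); right, S phase against G2 and M phase list in the same cells. Prl2c3 is at 0 in 77 cells and reaches 230.0 per 10000, while Vim is above 0 in each cell, and the highest G2 and M phase sums belong to cluster 1.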

How the data were processed

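For the single cells, SureCell 3' libraries on the ddSeq platform were demultiplexed and quantified with kallisto on mm10 with GENCODE v21, per the methods of the study. The authors deposited counts for 35849 genes in each barcode, unfiltered, in columns that carry no barcode sequence, so barcodes that libraries share could not be counted. For bulk RNA (SMART-seq2, STAR and RSEM), the TPM table of the authors was used; it holds no read totals, and for depth the methods give only a minimum over all libraries. No column was left out.

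Levels, ratios and intervals were computed with Python 3.11.15 and scipy 1.17.1. Clusters used scanpy 1.11.5 (2000 variable genes, 20 components, 15 neighbours, Leiden resolution 0.8). Scrublet called 1, 5 and 1 doublets in lungH, lungL and lymphH, which were kept. Bulk log2(TPM + 1) of the 15348 genes that reached 1 TPM in 2 of 14 libraries was fitted with limma 3.58.1 (R 4.3.3) as 7 group means, and genes were called where the log2 fold change passed 2 in size with p, adjusted by Benjamini-Hochberg, under 0.05. This scale understates changes of low genes. limma replaced the exact test of the study because TPM is no count. Scripts were tested on simulated data. Positions are from GENCODE vM21, which held all 35849 identifiers.

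Named genes were the 5 markers, the 12 largest ratios each way (Gm, Rik, ribosomal and mt- genes left out), the 10 highest, the 10 most variable, 5 leading genes per cluster, and from each of 23 lists the largest changes and members singled out after their values were seen. The members and lists were chosen with earlier results of these data known.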

Additional observations from a re-analysis of the deposited data

Results flagged for a closer look

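The 2346 lungH barcodes with at most 250 genes entered the comparisons only under an alternative that kept all barcodes. They held the same marker genes as the kept cells, at a median of 389 counts per barcode. Aldh3a1 was at 13.7 per 10000 in them, Vim at 31.7, Htra1 at 4.14 and Gata3 at 8.39, each above the level in the corresponding barcodes of lungL and lymphH. Aldh3a1 in those was at 0.372 and 0.00 per 10000. Prl2c3 was at 6.54 in these lungH barcodes and 14.6 in those of lungL.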

How the results depend on the processing

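Of 2928 single-cell ratios of named and listed genes under the alternatives, none of the called ones changed sign, 2618 stayed within the counting interval and 310 moved beyond it. Of 7199 bulk fold changes, 133 lost and 97 gained the call and none reversed. The numbers of single-cell calls were 199 to 253 against 233 for lungL and 204 to 248 against 223 for lymphH, except with a minimum level of 0.1 per 10000 (714 and 734). The cluster number was 3 at resolution 0.4 and 8 at 1.2, and without thinning the G2 and M phase share was 83.3%. A pseudocount of 0.1 gave 2666 (lung CD44low) and 3674 (LN CD44high) bulk calls in place of 1732 and 2202. Leaving out 1 library gave 1386 to 1608 and 1894 to 2327 calls. Median-ratio scaling moved the median of all genes by 0.18 on the log2 scale against LN CD44high, and the calls went from 1184 higher and 1018 lower to 866 and 1304. The replicate numbers did not pair the samples (correlation of deviations -0.19 and -0.02), and a replicate block gave 1701 and 2184 calls; crossed pairing for the lung groups gave 1713. The minimum of over 1000 genes per cell and the crossed pairing were added after the data were seen. Depth limits absence: 3 counts correspond to 0.0181 per 10000 in lungH.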
